A study of Mus musculus with 8 samples.

Results

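Autophagy machinery is the set of proteins that enclose cytoplasm in a double membrane, the autophagosome, and hand it to the lysosome. A list of 38 mouse genes was followed, from the kinase that starts the process to the receptors that choose the cargo and the transcription factors Tfeb and Tfe3. Members were chosen by name and role, and their values are those of the probe sets that the array's platform annotation maps to them. The annotation gave 85 such probe sets for 37 of the 38 genes, and all 37 had at least 1 probe set above the signal filter, so that 37 of 12093 genes tested belong to the list. Optn was not analysed here.

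Autophagy runs in steps. The ULK kinase complex responds to nutrient kinases and activates a lipid kinase complex built around Becn1 and Pik3c3. The lipid it makes recruits WIPI proteins, and ubiquitin-like conjugation enzymes then attach the ATG8 proteins (the LC3 and GABARAP families) to the growing membrane, where cargo receptors such as Sqstm1 bind them. In peripheral nerve, Schwann cells use autophagy to break down their own myelin after the axon has been lost.

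The study asked what the transcription factor c-Jun contributes to the response of Schwann cells to nerve injury. The sciatic nerve of adult mice was transected on 1 side at the sciatic notch, and a piece of 10 mm of the stump beyond the cut, together with the intact nerve of the other side, was taken 7 days later from control mice (labelled WT) and from c-Jun mutants (labelled c-Jun KO). That gave 4 groups of 2 Affymetrix arrays each: control nerve, uncut or cut, and mutant nerve, uncut or cut. Nerves of 4 or 6 mice were pooled for each array, the design text calls the replicates independent samples, and p-values measure the spread between such pools. The labels do not name the Cre driver of the mutant. Published work of the laboratory deletes floxed Jun with Cre under the P0 promoter, which acts in Schwann cells, so that other cells of the nerve keep the gene. Each uncut nerve came from an animal whose other nerve was cut.

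The tissue is labelled as adult Schwann cells (schwannoma cells in a description field), and it is a whole nerve segment. Schwann cell genes were present on all 8 arrays, with Sox10 at log2 values of 10.75 to 11.30. So were Acta1, the actin of skeletal muscle (12.85 to 14.55), Adipoq, a hormone of fat cells (12.05 to 13.90), and Cd68, a lysosomal protein of macrophages (8.11 to 8.79 in uncut and 11.65 to 12.21 in cut nerve). Jun was at 9.58 and 9.70 in control uncut nerve, 11.88 and 11.96 in control cut nerve, 9.62 and 9.59 in mutant uncut nerve and 10.39 and 10.80 in mutant cut nerve. The mutant cut arrays lay below the control cut arrays and above both uncut groups; whether the probe set lies in the deleted part is not known here. Replicate arrays correlated across genes with r = 0.984 to 0.989. They were not alike in milk protein genes: Csn2, a casein, was at 11.47 and 7.03 in control cut nerve, 3.69 and 9.15 in mutant cut nerve, 13.01 and 10.33 in mutant uncut nerve and 3.50 and 4.14 in control uncut nerve. Results after injury are therefore also given without control cut replicate 1 and mutant cut replicate 2, an alternative chosen after seeing the data. The mutant uncut arrays, with Csn2 at 13.01 and 10.33, stay in that fit. It therefore does not even out milk protein signal between cut and uncut mutant nerve. The part of milk protein signal in the calls was not tested.

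Promoter sequences of 4 members are shown because they are the genes that the comparisons turn on: Sqstm1, which had the highest rise, Wipi1, the riser with the most probe sets, Gabarapl1, which had the deepest fall, and Atg7, the one called member whose window holds a searched motif. They are the 250 bases before the annotated start, 5′ to 3′ on the gene's strand, from RefSeq on GRCm38.p6: Sqstm1 at chr11:50210821-50211070 (minus strand), Wipi1 at chr11:109611390-109611639 (minus strand), Gabarapl1 at chr6:129532942-129533191 (plus strand) and Atg7 at chr6:114670846-114671095 (plus strand). The Atg7 window lies inside the annotated gene, before the start of an inner transcript. Capitals mark the letters CACGTG.
Sqstm1: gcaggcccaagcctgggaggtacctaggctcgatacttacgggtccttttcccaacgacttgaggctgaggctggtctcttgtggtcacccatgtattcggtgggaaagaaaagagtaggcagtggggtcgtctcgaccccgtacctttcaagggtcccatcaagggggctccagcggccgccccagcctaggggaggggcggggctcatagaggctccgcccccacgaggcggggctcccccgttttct
Wipi1: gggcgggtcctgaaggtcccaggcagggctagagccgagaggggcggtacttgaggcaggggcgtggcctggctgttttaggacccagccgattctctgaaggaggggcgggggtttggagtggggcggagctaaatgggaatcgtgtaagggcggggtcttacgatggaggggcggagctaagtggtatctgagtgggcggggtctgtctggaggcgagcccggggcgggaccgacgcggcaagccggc
Gabarapl1: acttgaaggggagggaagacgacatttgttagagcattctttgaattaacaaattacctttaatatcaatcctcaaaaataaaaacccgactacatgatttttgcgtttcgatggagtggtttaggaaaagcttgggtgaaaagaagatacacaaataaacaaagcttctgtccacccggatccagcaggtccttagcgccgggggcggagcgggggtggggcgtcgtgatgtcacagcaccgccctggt
Atg7: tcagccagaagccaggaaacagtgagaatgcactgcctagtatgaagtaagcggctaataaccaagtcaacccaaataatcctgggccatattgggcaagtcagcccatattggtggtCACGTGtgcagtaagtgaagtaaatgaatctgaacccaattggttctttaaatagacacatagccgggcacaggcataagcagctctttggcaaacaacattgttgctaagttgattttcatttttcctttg

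The windows searched ran from 250 bases before to 50 bases after the start. One motif was CACGTG, an E-box of the kind that Tfeb and Tfe3 bind, and the other TGANTCA, the letters that AP-1 factors such as c-Jun bind. Both read the same on either strand, and a copy of one can overlap a copy of the other by the letters TG or CA. Of the 37 measured members and Optn, 32 had a window in the table. CACGTG stood in 5 of these 32 (15.6%): Atg14, Atg3, Atg5, Atg7 and Bnip3. It stood in 11.7% of the 9729 tested genes with a window and in 8.09% of all 27025 genes. TGANTCA stood in 1 of the 32 (3.12%), Tfe3, against 6.51% of tested genes and 8.97% of all genes. Among the 8 members called after injury, 1 window held CACGTG (12.5%, Atg7, 132 bases before the start) and 0 held TGANTCA. GC content of the printed stretches was 63.2% for Sqstm1, 67.2% for Wipi1, 46.8% for Gabarapl1 and 43.2% for Atg7, beside a median of 52.4% over all genes. A match here is a description of letters in a window and says nothing of binding.

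On the brightest probe set of each gene, few autophagy genes were called after nerve cut in control mice, and their differences were modest. Of 37 members, 5 rose (Sqstm1, Wipi1, Atg7, Atg4a and Atg4d), 2 fell (Gabarapl1 and Atg10) and 30 did not pass the test. The members called were 18.9% of the list, beside 40.3% of all 12093 genes in the same contrast (22.8% higher and 17.5% lower; limma, Benjamini-Hochberg adjusted p under 0.05). The median log2 difference of the members, cut minus uncut, was 0.11, beside 0.05 over all genes. Differences ran from -0.98 for Gabarapl1 to 0.65 for Sqstm1. None of the 37 reached an absolute log2 difference of 1, which 12.9% of all genes did. The control arrays did not overlap between cut and uncut nerve for 24 members (64.9%, 16 higher and 8 lower), beside 73.1% of all genes. Leaving out either control cut array lowered the number of members called, and the share of all genes called as well. Without the cut arrays of higher milk protein signal the members called above kept their sign, but not all passed. Their differences then ran from -0.97 (Gabarapl1) to 0.88 (Sqstm1).

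In mutant mice Sqstm1 and Gabarapl1 again marked the ends of the range. Of 37 members, 3 rose (Sqstm1, Atg4a and Wipi1), 3 fell (Gabarapl1, Wipi2 and Atg10) and 31 did not pass. The share called was 16.2%, beside 36.0% of all genes (18.1% higher and 17.8% lower). The median member difference was 0.07, and the range was -1.03 for Gabarapl1 to 0.79 for Sqstm1. Gabarapl1 was the one member past an absolute difference of 1, beside 11.8% of all genes. Cut and uncut mutant arrays did not overlap for 26 members (70.3%, 17 higher and 9 lower), beside 71.0% of all genes. Leaving out mutant cut replicate 2 or mutant uncut replicate 1 lowered the number of members called, and the share of all genes called as well. Without the cut arrays of higher milk protein signal the members called above kept their sign, but not all passed. Their differences then ran from -0.95 (Gabarapl1) to 0.71 (Sqstm1).

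**Figure D1:**
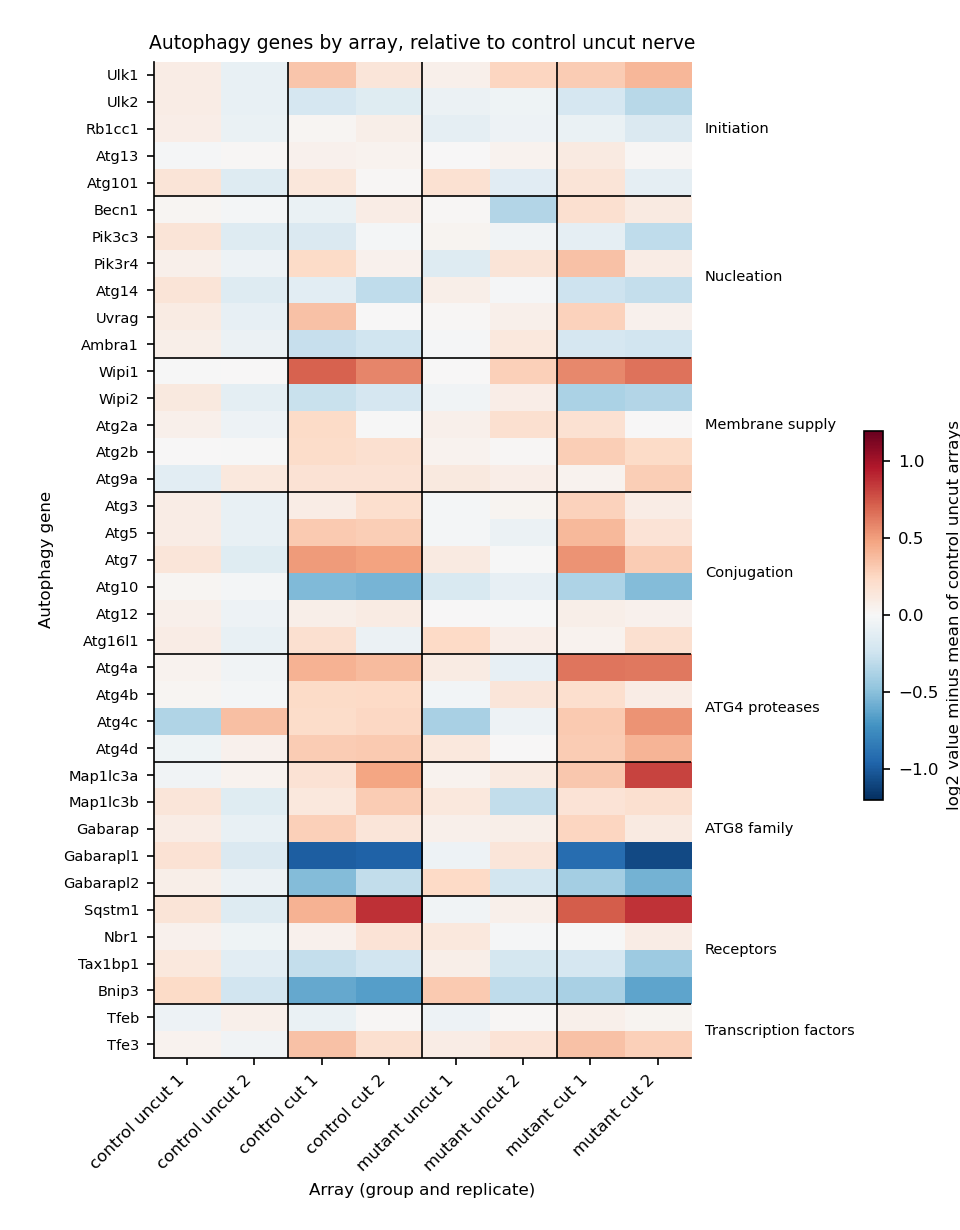
Heat map of the 37 measured autophagy genes (rows, grouped by role) on the 8 arrays (columns, by group and replicate); colour gives the log2 value minus the mean of the control uncut arrays. Sqstm1, Wipi1, Atg7 and the ATG4 proteases Atg4a and Atg4d are redder in cut nerve, Gabarapl1, Atg10 and Bnip3 bluer, and most other rows stay pale on all arrays.

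Initiation genes encode the ULK complex: the kinases Ulk1 and Ulk2, the scaffold Rb1cc1 (FIP200), the regulatory subunit Atg13 and its partner Atg101. None of the 5 passed the test in either genotype. Differences ran from -0.17 (Ulk2) to 0.24 (Ulk1) in control nerve and from -0.21 (Ulk2) to 0.20 (Ulk1) in mutant nerve. Ulk1 arrays of cut nerve lay above those of uncut nerve in both genotypes, at 8.71 and 8.53 against 8.47 and 8.30 in control mice. Atg13 stayed between 7.99 and 8.11 on all arrays, with intervals of -0.16 to 0.25 in control and -0.17 to 0.25 in mutant nerve. Ulk2 depends on the probe set: besides the brightest one, a second fell in both genotypes (-0.48, adjusted p = 0.0158 in control and -0.56, adjusted p = 0.00946 in mutant nerve, limma over all probe sets), and another gave 0.37 in control nerve (adjusted p = 0.0644).

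Nucleation genes encode the class III lipid kinase complex: the kinase Pik3c3 (Vps34), its regulatory subunit Pik3r4, the scaffold Becn1, the alternative subunits Atg14 and Uvrag, and Ambra1, which binds Becn1. None of these 6 passed in either genotype, with differences from -0.26 (Ambra1) to 0.18 (Uvrag) in control nerve and from -0.29 (Atg14) to 0.32 (Becn1) in mutant nerve. Becn1 was at 10.73 and 10.68 in control uncut nerve, 10.62 and 10.79 in control cut nerve, 10.72 and 10.35 in mutant uncut nerve and 10.90 and 10.81 in mutant cut nerve. The control groups overlapped, and in the mutants both cut arrays lay above both uncut ones. The difference was 0.01 in control nerve (95% interval -0.31 to 0.32, adjusted p = 0.98) and 0.32 in mutant nerve (0.00 to 0.64, adjusted p = 0.106), and a second kept probe set gave 0.28 and 0.19, neither called. The second of the mutant uncut arrays was the low one, and without mutant uncut replicate 1 the mutant difference was 0.50 with adjusted p = 0.0307. Ambra1 was lower on every cut array than on every uncut array of its genotype, by -0.26 (adjusted p = 0.0775) and -0.27 (adjusted p = 0.0744). A dimmer Ambra1 probe set fell in control nerve (-0.52, adjusted p = 0.022 over all probe sets) and differed by -0.02 in mutant nerve.

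Among the genes that supply membrane, Wipi1 rose in both genotypes, and Wipi2 had probe sets of opposite sign. WIPI proteins bind the lipid that Pik3c3 makes, and Wipi2 then recruits the Atg16l1 complex. Wipi1 was at 9.47 and 9.48 in control uncut nerve, 10.18 and 10.05 in control cut nerve, 9.48 and 9.76 in mutant uncut nerve and 10.05 and 10.12 in mutant cut nerve. All 4 cut arrays lay above all 4 uncut arrays. Wipi1 rose 1.57-fold in control nerve (log2 difference 0.65, SE 0.12, adjusted p = 0.00402) and 1.38-fold in mutant nerve (0.47, adjusted p = 0.0185). All 6 of its kept probe sets had positive differences in both genotypes, from 0.17 to 0.96 in control nerve, and 3 of them passed in each genotype. The control call held in each of 18 alternatives. The mutant call was lost without mutant cut replicate 1 (adjusted p = 0.0503), mutant cut replicate 2 (0.0928) or mutant uncut replicate 1 (0.0975).

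Wipi2 was at 9.14 and 8.90 in control uncut nerve, 8.76 and 8.82 in control cut nerve, 8.97 and 9.10 in mutant uncut nerve and 8.64 and 8.67 in mutant cut nerve. Cut arrays lay below uncut arrays in each genotype. The fall passed in mutant nerve (-0.38, SE 0.11, adjusted p = 0.0313) and the difference in control nerve was -0.23 (adjusted p = 0.133). That call was lost without any 1 of the 4 mutant arrays (adjusted p = 0.109 without cut replicate 1, 0.102 without cut replicate 2, 0.0582 without uncut replicate 1 and 0.149 without uncut replicate 2). A second Wipi2 probe set pointed the other way, at 0.26 in control and 0.30 in mutant nerve, neither called, and the mean of both gave -0.04 (adjusted p = 0.834) in mutant nerve. The lipid transfer proteins Atg2a and Atg2b and the membrane scramblase Atg9a did not pass, with differences between -0.03 and 0.23 in both genotypes.

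Conjugation enzymes showed 1 rise and 1 fall in control nerve. Atg7 is the E1-like enzyme that activates both ubiquitin-like systems. It was at 8.37 and 8.08 in control uncut nerve, 8.73 and 8.71 in control cut nerve, 8.33 and 8.22 in mutant uncut nerve and 8.76 and 8.53 in mutant cut nerve. All 4 cut arrays were above all 4 uncut arrays. Atg7 rose 1.41-fold in control nerve (0.50, SE 0.13, adjusted p = 0.0196), and the difference in mutant nerve was 0.37 (adjusted p = 0.0606). The call was lost without control uncut replicate 2 (adjusted p = 0.119), control cut replicate 1 (0.0747) or control cut replicate 2 (0.068), and its other 2 kept probe sets gave 0.33 and 0.19 in control nerve, neither called.

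Atg10, the E2-like enzyme that joins Atg12 to Atg5, was at 8.28 and 8.23 in control uncut nerve, 7.73 and 7.70 in control cut nerve, 8.07 and 8.16 in mutant uncut nerve and 7.88 and 7.74 in mutant cut nerve. Every cut array was below every uncut array. Expression fell to 0.685 of the uncut level in control nerve (-0.55, SE 0.10, adjusted p = 0.00356) and to 0.808 in mutant nerve (-0.31, adjusted p = 0.0413). The control call held in each of 17 alternatives. The mutant call held in 4 of 17 and in none of the fits that left out 1 array (adjusted p up to 0.214, without mutant cut replicate 2). Of the other conjugation genes, Atg5, the target of Atg12, was higher in cut nerve without passing (0.30, adjusted p = 0.0678 and 0.32, adjusted p = 0.0615). A dimmer Atg5 probe set rose in control nerve (0.49, adjusted p = 0.0476 over all probe sets) and differed by 0.21 in mutant nerve, and the mean of its kept probe sets passed in control nerve (0.38, adjusted p = 0.0382). Atg3, the E2-like enzyme for the ATG8 proteins, Atg12 and Atg16l1 differed by between -0.04 and 0.18.

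All 4 ATG4 proteases, which trim newly made ATG8 proteins and later free them from membranes, had positive differences in both genotypes. Atg4a was at 8.47 and 8.39 in control uncut nerve, 8.85 and 8.82 in control cut nerve, 8.53 and 8.33 in mutant uncut nerve and 9.08 and 9.07 in mutant cut nerve. In control nerve it rose by 0.40 (SE 0.10, adjusted p = 0.017), and the mutant rise was 0.64 (adjusted p = 0.00257). The mutant cut arrays were the highest of the 8. The control call was lost without control cut replicate 1 or 2 (adjusted p = 0.0692 and 0.0577) and without control uncut replicate 1 or 2 (0.0511 and 0.0916), and a dimmer probe set of Atg4a gave -0.37 (adjusted p = 0.0872) and -0.21. On every cut array this dimmer probe set lay at 6.46 or lower, below the lowest array median of 6.59, and it passed the signal filter through uncut arrays. The mean of both probe sets differed by 0.02 in control nerve (adjusted p = 0.912) and by 0.22 in the mutants (adjusted p = 0.127), so that neither call holds on that measure.

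Atg4d was at 7.19 and 7.29 in control uncut nerve, 7.55 and 7.56 in control cut nerve, 7.37 and 7.25 in mutant uncut nerve and 7.55 and 7.65 in mutant cut nerve. Again all cut arrays lay above all uncut arrays, by 0.31 in control nerve (SE 0.10, adjusted p = 0.0372) and, without passing, by 0.29 in the mutants (adjusted p = 0.0528). The call held in 2 of 8 fits that left out 1 array, those without a mutant uncut array, with adjusted p up to 0.17 (without control uncut replicate 1). Atg4c differed by 0.23 and 0.65 (adjusted p = 0.449 and 0.0613), on arrays that spread widely in control uncut nerve (7.02 and 7.74). A dimmer Atg4c probe set passed in both genotypes (0.52, adjusted p = 0.015 and 0.50, adjusted p = 0.02 over all probe sets). Atg4b differed by 0.24 and 0.09, with a second probe set of the opposite sign (-0.24 and -0.34).

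**Figure D2:**
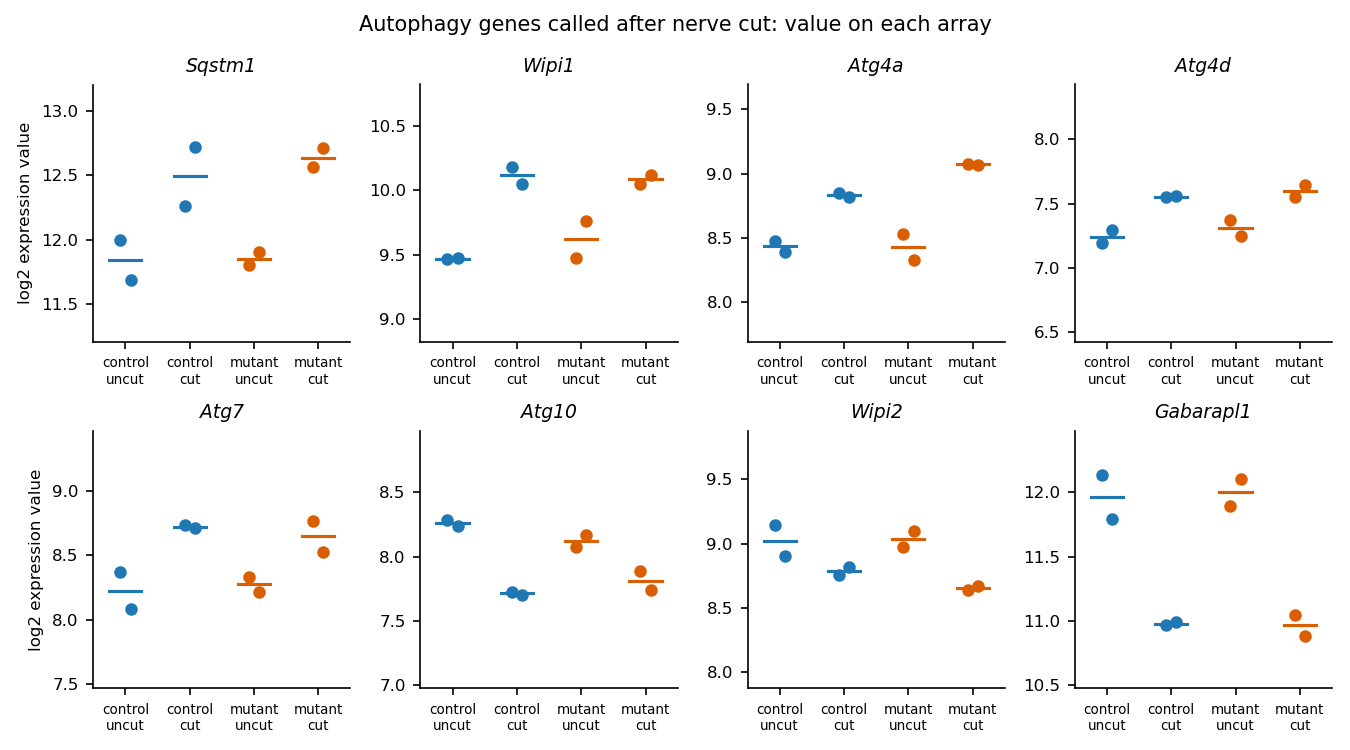
Log2 expression value on each array (points; vertical axis) for the 8 autophagy genes called after nerve cut in either genotype, by group (horizontal axis), with the group mean as a bar and 2 arrays in each group. Gabarapl1 drops from 11.79 to 12.13 in uncut nerve to 10.88 to 11.05 in cut nerve, while Sqstm1 climbs from 11.69 to 12 in uncut nerve up to 12.26 to 12.72; vertical axes span the same width but not the same levels.

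Of the ATG8 proteins, which decorate the autophagosome membrane, Gabarapl1 changed most. Its values were 12.13 and 11.79 in control uncut nerve, 10.97 and 10.99 in control cut nerve, 11.90 and 12.10 in mutant uncut nerve and 11.05 and 10.88 in mutant cut nerve. The cut arrays were far below the uncut arrays, with a gap wider than the spread within any group. Gabarapl1 fell to 0.506 of its uncut level in control nerve (-0.98, SE 0.14, adjusted p = 0.00127) and to 0.488 in mutant nerve (-1.03, adjusted p = 0.00121). A second probe set gave -1.07 and -0.93, both called. Each of 18 alternatives kept both calls. Gabarapl2, its relative, was also lower in cut nerve without passing (-0.41, adjusted p = 0.0886 and -0.50, adjusted p = 0.0507). A dimmer probe set of Gabarapl2 gave -0.72 in control nerve. On every cut array it lay at 6.57 or lower, below the lowest array median of 6.59, and it passed the signal filter through the uncut arrays. Being tested thus depended on the fall, and the call of that probe set is no further support. Gabarap itself differed by 0.21 and 0.12, neither called.

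The LC3 genes did not follow Gabarapl1. Map1lc3a (LC3A) was at 12.09 and 12.17 in control uncut nerve, 12.30 and 12.60 in control cut nerve, 12.17 and 12.23 in mutant uncut nerve and 12.45 and 12.94 in mutant cut nerve. Every cut array was above every uncut array, with differences of 0.32 (adjusted p = 0.173) and 0.49 (adjusted p = 0.0578) that did not pass. A second Map1lc3a probe set, at lower signal, rose in both genotypes (0.79, adjusted p = 0.018 and 0.97, adjusted p = 0.00869 over all probe sets).

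Map1lc3b (LC3B), the form most often followed as an autophagosome marker, was at 12.42 and 12.13 in control uncut nerve, 12.40 and 12.58 in control cut nerve, 12.40 and 11.98 in mutant uncut nerve and 12.44 and 12.47 in mutant cut nerve. The control groups overlapped. Differences were 0.22 (95% interval -0.17 to 0.60, adjusted p = 0.329) and 0.26 (-0.12 to 0.64, adjusted p = 0.251), and its other 2 kept probe sets were negative in both genotypes (-0.20 and -0.15 in control nerve, -0.22 and -0.33 in mutant nerve), so that Map1lc3b has no settled direction here.

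Receptors tie cargo to the ATG8 proteins. Sqstm1 (p62), which carries ubiquitinated cargo, was at 12 and 11.69 in control uncut nerve, 12.26 and 12.72 in control cut nerve, 11.80 and 11.90 in mutant uncut nerve and 12.56 and 12.71 in mutant cut nerve. All 4 cut arrays were above all 4 uncut arrays. Sqstm1 rose 1.57-fold in control nerve (0.65, SE 0.17, adjusted p = 0.0201) and 1.72-fold in mutant nerve (0.79, adjusted p = 0.0103). The control call was lost without control uncut replicate 2 (adjusted p = 0.12) or control cut replicate 2 (0.103). The mutant call was lost without mutant cut replicate 2 (adjusted p = 0.0599) or mutant uncut replicate 1 (0.052). Without the cut arrays of higher milk protein signal the differences were 0.88 and 0.71, both called.

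Bnip3, a receptor on mitochondria, was at 12.34 and 11.89 in control uncut nerve, 11.50 and 11.46 in control cut nerve, 12.43 and 11.81 in mutant uncut nerve and 11.73 and 11.48 in mutant cut nerve. It was lower on the cut than on the uncut arrays of both genotypes and just missed the threshold in control nerve (-0.64, adjusted p = 0.0553 and -0.51, adjusted p = 0.112), with uncut arrays that differed among themselves. Nbr1, a relative of Sqstm1, differed by 0.11 and -0.02. Tax1bp1, which binds ubiquitinated cargo, differed by -0.26 and -0.25 on its brightest probe set without passing, and a dimmer one fell in both genotypes (-0.74, adjusted p = 0.00181 and -0.55, adjusted p = 0.00834 over all probe sets).

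Tfeb and Tfe3 switch on lysosome and autophagy genes, largely by moving into the nucleus, which these arrays do not measure. Tfeb was at 8.31 and 8.44 in control uncut nerve, 8.29 and 8.39 in control cut nerve, 8.31 and 8.39 in mutant uncut nerve and 8.44 and 8.41 in mutant cut nerve. The differences of -0.03 (95% interval -0.26 to 0.19) and 0.07 (-0.16 to 0.30) did not pass. Tfe3 was at 8.88 and 8.79 in control uncut nerve, 9.19 and 9.03 in control cut nerve, 8.92 and 8.997 in mutant uncut nerve and 9.18 and 9.12 in mutant cut nerve. Its cut arrays lay above its uncut arrays in both genotypes, by 0.28 (adjusted p = 0.0602) and 0.19 (adjusted p = 0.171), short of the threshold.

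Most members had the same sign of difference in both genotypes. Called in both injury contrasts, with the same sign, were 5 members (Sqstm1, Wipi1, Atg4a, Gabarapl1 and Atg10). At least 1 contrast called 8 members, and 29 were called in none. Taken singly, the contrasts called 40.3% of all genes in control and 36.0% in mutant nerve. The share of all genes called in both, either or neither is not given here. Whether these member counts are many or few beside it was therefore not tested. The sign was shared by 32 of 37 members (86.5%), beside 84.7% of all genes. Across the 37 members the contrasts, which share no array, correlated with Pearson's r = 0.924 and Spearman's rho = 0.907 (0.909 and 0.895 over all genes). These correlations are over genes on the same arrays and are given as a description.

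**Figure D3:**
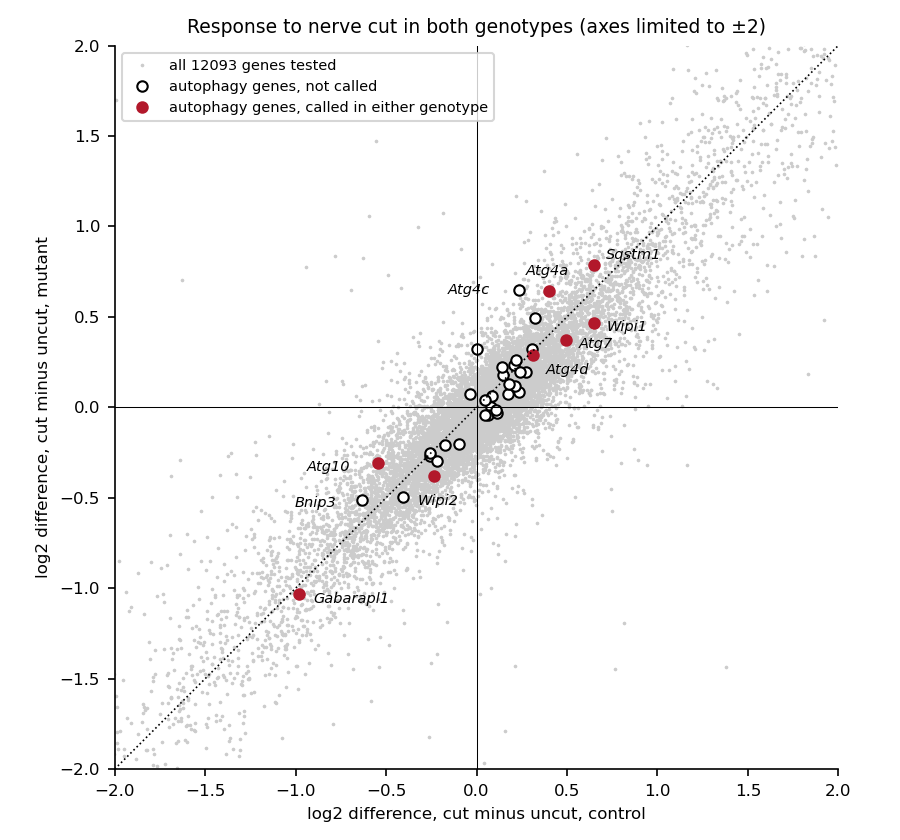
Log2 difference between cut and uncut nerve in control mice (horizontal axis) and in c-Jun mutants (vertical axis) for all 12093 genes tested (grey) and the 37 autophagy genes (circles, red where called in either genotype); the dotted line marks equal differences and the axes stop at 2 in both directions. The autophagy genes lie along the line between -1.03 and 0.79, inside the range of the other genes.

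Probe sets of 1 gene did not always move together. Of the 85 member probe sets 68 passed the signal filter, and 21 genes had more than 1 of them. The kept probe sets of a gene had 1 sign for 15 of these 21 genes in control nerve and for 12 in mutant nerve. Over the 68, 10 rose and 7 fell in control nerve, beside 36.1% of all 20943 kept probe sets with 1 gene symbol, and 7 rose and 5 fell in mutant nerve, beside 31.8%. Between mutant and control cut nerve 0 of the 68 passed, beside 0.907%, a share at which 0 calls say little. No gene had probe sets called in both directions. Where the mean of a gene's kept probe sets was tested in place of the brightest one, 11 members were called in control nerve (6 higher and 5 lower) and 8 in mutant nerve. That fit called 40.3% and 36.2% of all genes.

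No autophagy gene was called between c-Jun mutant and control nerve. In cut nerve 0 of 37 members passed, beside 1.09% of all genes (132 genes, with an absolute difference of 0.56 or more). At so low a share, 0 calls among 37 genes say little on their own. Mutant minus control differences ran from -0.17 (Rb1cc1) to 0.25 (Map1lc3a). The 95% interval lay within 0.5 of 0 for 33 members and within 1 for all 37. At an unadjusted p under 0.05 there was 1 member, Atg4a (0.24, 95% interval 0.00 to 0.48, adjusted p = 0.571), beside 8.61% of all genes. Arrays of mutant and control cut nerve did not overlap for 10 members (27.0%, 7 higher and 3 lower), beside 34.6% of all genes. Of the other 7 members called after injury, Wipi2 differed by -0.13 between the genotypes, Atg7 by -0.07, Wipi1 by -0.03, Gabarapl1 by -0.01, Atg4d by 0.04, Atg10 by 0.10 and Sqstm1 by 0.15.

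Uncut nerves of mutant and control mice gave 0 called members and 0 called genes of 12093 (0%), with 0 members at an unadjusted p under 0.05 beside 2.66% of all genes. Differences ran from -0.22 (Atg4c) to 0.16 (Atg16l1), and the arrays did not overlap for 4 members (10.8%) beside 27.1% of all genes. The uncut groups were still not alike in every gene. Csn3, a casein, was at 5.48 and 5.90 in control uncut and 11.48 and 12.03 in mutant uncut nerve. The fit takes 1 spread from all 4 groups, and Csn3 had an SD of 2.53 in control cut and 2.76 in mutant cut nerve. The test of whether the injury response differed between genotypes called 0 members, beside 0.165% of all genes (20 genes), so 0 calls say little here. At an unadjusted p under 0.05 there were 0 members in that test, beside 6.04% of all genes. Its values ran from -0.18 (Wipi1) to 0.41 (Atg4c), with adjusted p of at least 0.967. Each alternative run gave 0 called members in these 3 contrasts.

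**Figure D4:**
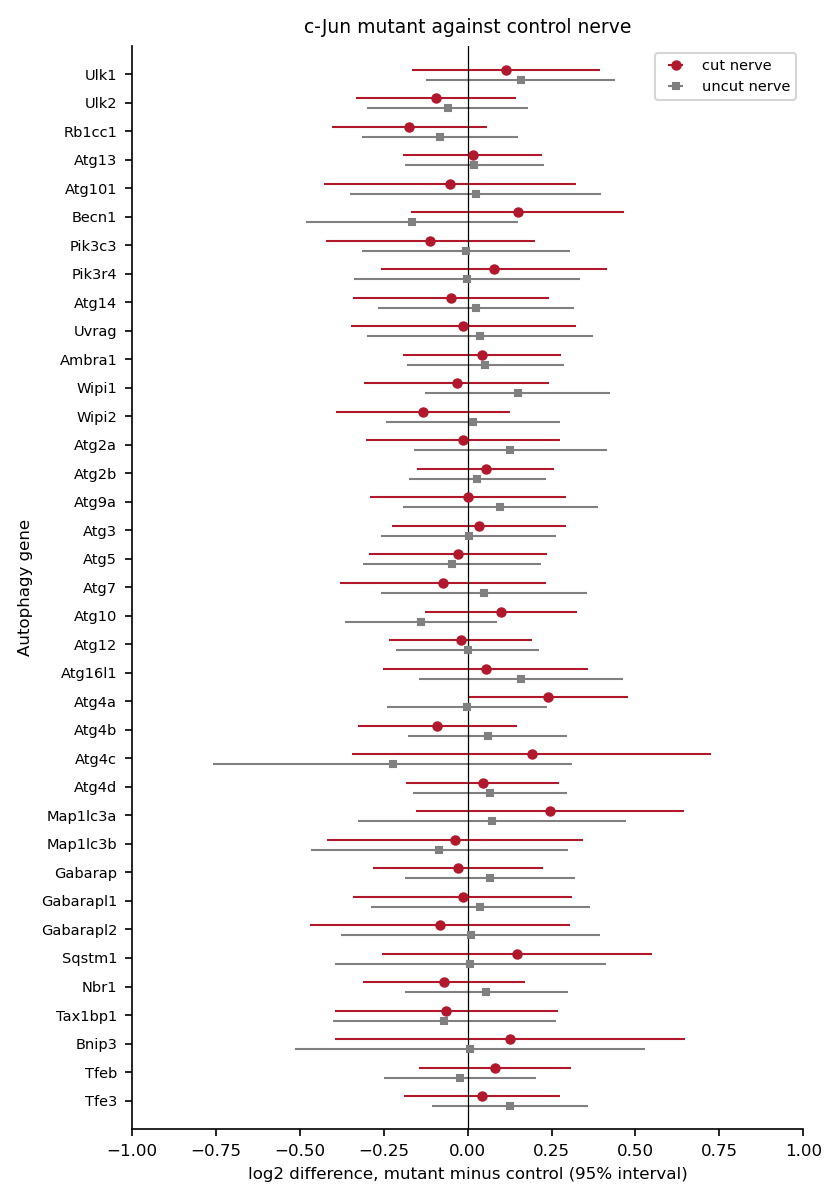
Log2 difference, mutant minus control (horizontal axis), with its 95% interval from limma for each autophagy gene (vertical axis) in cut (red circles) and uncut nerve (grey squares), from 2 arrays a group. All points lie within 0.25 of 0, and the widest intervals, those of Atg4c, reach past 0.5.

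The wider pathway was read from lists of related genes. Of 36 measured further autophagy genes, which act beside the core machinery, 5 rose and 2 fell in control nerve (19.4%), and 5 rose and 3 fell in mutant nerve (22.2%), beside 40.3% and 36.0% of all genes. Leaving out either mutant cut array lowered the calls in mutant nerve. Leaving out the cut arrays of higher milk protein signal lowered them in both genotypes. Those fits leave 1 array in a group and called a smaller share of all genes as well. Vmp1, a membrane protein of the endoplasmic reticulum needed for autophagosome formation, rose 2.10-fold and 2.06-fold (adjusted p = 4.4e-04 and 6.0e-04). Pink1, the kinase that marks damaged mitochondria, fell by 0.86 and 0.61 on the log2 scale (adjusted p = 8.8e-04 and 0.00487), and Fundc1, a mitochondrial receptor, fell by 0.57 in both (adjusted p = 0.00596 and 0.00695). Zfyve1, a marker of the membrane sites where autophagosomes form, rose by 0.58 and 0.65 (adjusted p = 0.0151 and 0.0108).

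Rubcn (Rubicon), an inhibitor of the lipid kinase complex of Uvrag and Becn1, was the 1 gene of this list called by genotype, and was singled out after its values were seen. It was at 8.59 and 8.48 in control uncut nerve, 9.75 and 9.43 in control cut nerve, 8.67 and 8.67 in mutant uncut nerve and 8.70 and 8.74 in mutant cut nerve. Only the control cut arrays were high. Rubcn rose 2.08-fold in control nerve (1.05, adjusted p = 4.6e-04) and differed by 0.05 in mutant nerve (95% interval -0.23 to 0.34). Among cut nerves it was lower in the mutants (-0.87, adjusted p = 0.0234), while the test of unequal injury responses did not pass (-1.001, adjusted p = 0.109). The genotype call held in 11 of 18 alternatives and in 3 of 8 fits that left out 1 array and 1 probe set measured it. It was lost without control cut replicate 1, either control uncut array or either mutant cut array (adjusted p from 0.0528 to 0.14). Without the cut arrays of higher milk protein signal the difference was -0.73 (adjusted p = 0.183).

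Lysosome genes, whose products digest what autophagosomes deliver, were mostly higher in cut nerve. Of 44 measured, 30 rose and 1 fell in control nerve (70.5%, median 0.61) and 34 rose and 1 fell in mutant nerve (79.5%, median 0.69). In the same contrasts 40.3% and 36.0% of all genes were called. By genotype 0 were called, beside 1.09% of all genes in cut nerve. Without the cut arrays of higher milk protein signal, which leaves 1 array in each cut group, fewer lysosome genes and a smaller share of all genes were called. The proteases Ctss and Lgmn rose by 2.68 and 2.86 and by 2.38 and 2.39 on the log2 scale. Gla, a glycosidase, rose by 2.79 and 3.20 and Atp6v0d2, a proton pump subunit, by 5.03 and 5.46. Both were at or below the array median in uncut nerve (5.98 to 6.59 for Gla and 5.50 to 6.24 for Atp6v0d2). They passed the signal filter through the cut arrays, where they were high. Being tested thus depended on the rise, and the size of these 2 rises is uncertain. Ids, a sulfatase of heparan and dermatan sulfate breakdown, fell by 0.91 in both. The adjusted p of Ctss, Lgmn and Ids was at most 7.3e-04 in either genotype. Gla and Atp6v0d2 stand among the risers counted above, and for the reason given no adjusted p is printed for them. CACGTG stood in 17 of 37 lysosome gene windows (45.9%). Of 36 genes of the nutrient kinases mTORC1 and AMPK, which set the ULK complex on or off, 8 rose and 4 fell in each genotype (33.3%, beside 40.3% and 36.0% of all genes). Leaving out 1 array gave fewer calls in control nerve, the fewest without control uncut replicate 1, and as many or fewer in mutant nerve. Without the cut arrays of higher milk protein signal there were fewer in each. All of these fits leave 1 array in at least 1 group and called a smaller share of all genes than the main fit. Rragd, a GTPase that brings mTORC1 to the lysosome, rose by 1.71 and 1.84 and Fnip2, a partner of folliculin, by 1.17 and 1.51, while Sesn1, a sensor that restrains mTORC1, fell by 1.57 and 1.09 and Deptor, an mTOR inhibitor, by 1.41 and 1.13 (adjusted p at most 0.00465).

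**Figure D5:**
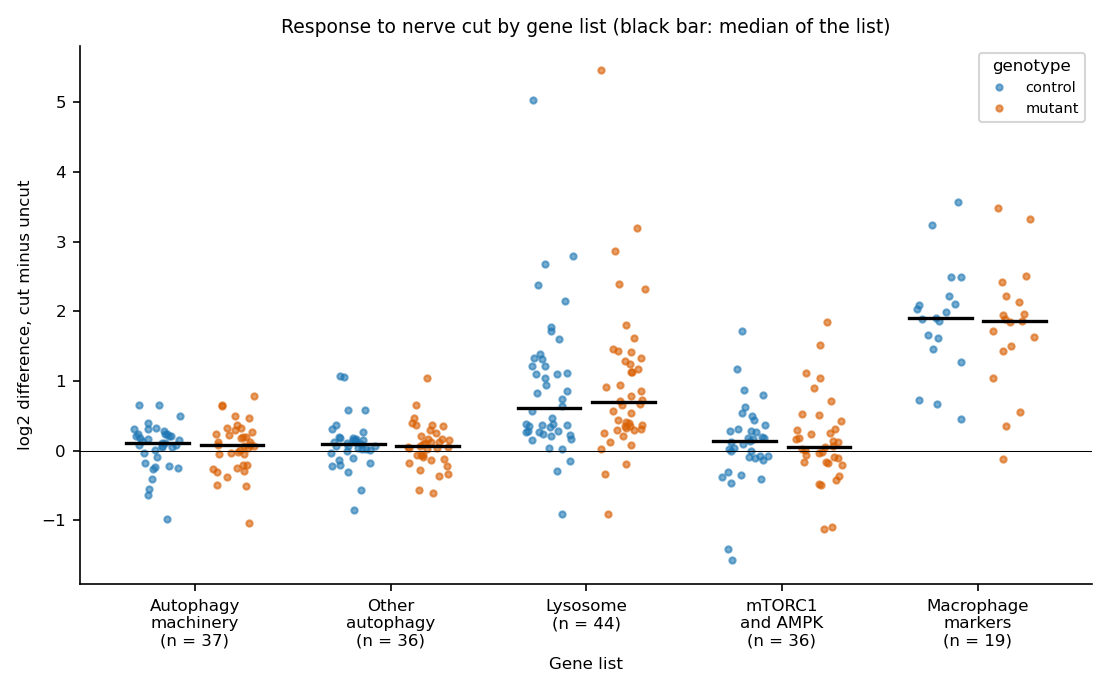
Log2 difference between cut and uncut nerve (vertical axis) of each measured gene in 5 lists (horizontal axis) in control mice (blue) and c-Jun mutants (orange), with the list median as a black bar. The autophagy machinery centres at 0.11 and 0.07, the lysosome list at 0.61 and 0.69, and the macrophage markers lie higher still.

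Markers of several cell types moved with the injury, in contrasts that called 40.3% of all genes in control and 36.0% in mutant nerve. All 13 myelin genes of Schwann cells fell in both genotypes (median -2.90 and -2.85), and their summed level on the log2 scale went from 16.77 to 16.80 down to 14.23 to 14.27 in control nerve and from 16.64 to 16.78 down to 14.45 to 14.74 in mutant nerve. Of 7 measured markers of Schwann cell identity, 3 rose and 1 fell in control nerve, and 4 rose and 1 fell in mutant nerve. Their summed level went from 13.79 up to 14.19 to 14.23 in control nerve. In mutant nerve it went from 13.48 to 13.71 up to 13.90. The sum mixes genes that moved apart. Ngfr rose most (3.93 in control and 3.39 in mutant nerve) and S100b fell (-0.92 and -1.04). The mean of Sox10 went from 11.07 to 11.03 in control and from 11.03 to 10.83 in mutant nerve. Of 19 macrophage markers 19 rose in control and 18 in mutant nerve, and their summed level went from 14.03 to 14.32 up to 16.02 to 16.14 in control nerve and from 14.04 to 14.37 up to 15.93 to 16.16 in mutant nerve. Skeletal muscle markers rose for 11 and 14 of 15 genes, from 15.35 to 16.19 up to 16.99 to 17.26 in control nerve and from 15.43 to 16.27 up to 17.07 to 17.62 in mutant nerve. Adipocyte markers fell for 4 of 6 in each genotype, from 15.25 to 15.42 down to 14.06 to 14.65 in control nerve and from 15.32 to 15.48 down to 14.04 to 14.62 in mutant nerve. Endothelial markers fell for 2 of 10 genes in control and 6 in mutant nerve, and of 7 markers of vessel wall cells 3 and 4 fell and 1 rose. Fibroblast markers rose for 4 of 10 and fell for 1 in each genotype, and lymphocyte markers rose for 2 of 5 measured (11 listed). The lymphocyte risers Gzmb and Klrd1 and the macrophage marker Itgam lay below every array median in uncut nerve (5.57 to 6.45). The myelin genes Ncmap and Cldn19 did so in cut nerve (5.65 to 6.46). These genes passed the signal filter only through the nerves where they were high, so being tested depended on the change. The part of these cell types in the changes of Sqstm1, Wipi1, Gabarapl1 and the other members was not tested, and in these whole segments fewer cells of a type and less RNA per cell cannot be told apart. Between mutant and control cut nerve 2 of the 13 myelin genes were higher in the mutants (Mbp by 0.99, adjusted p = 0.0212, and Gjb1 by 0.89, adjusted p = 0.016), and 1 of 5 lymphocyte markers was lower (Gzmb by -2.25, adjusted p = 0.0236), named after their values were seen. None of the 7 Schwann identity, 19 macrophage, 12 lipid-laden macrophage, 3 neutrophil, 15 muscle, 6 adipocyte, 10 endothelial, 7 vessel wall and 10 fibroblast markers passed in that contrast. It called 1.09% of all genes, so 0 calls in lists this short say little.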

How the data were processed

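RNA of 8 pools of mouse sciatic nerve was measured on 1-colour arrays. The deposited log2 values, 1 per probe set and array (45101 probe sets), were made by the authors with RMA and the package affy, per the submitters' processing notes. The sources used here give no versions, scan dates or detection calls. RMA equalises the arrays and compresses differences of dim probe sets. Array medians were 6.59 to 6.65. Gene symbols came from the platform annotation (34958 probe sets with 1 symbol, 932 with several, 9211 with none). By gene number 34754 were found in a current table, and 0 symbols changed.

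Probe sets had to exceed the median of their array on 2 or more arrays (24220 did, and 64 control probe sets were left out). The kept probe set of highest mean stood for its gene. With R 4.3.3 and limma 3.58.1, group means were fitted to all 8 arrays (4 residual and 3.59 prior degrees of freedom, prior SD 0.124), with 5 contrasts, two-sided, Benjamini-Hochberg adjustment over all 12093 genes and calls at an adjusted p under 0.05. Probe set results come from the same fit over all kept probe sets. The fit was tested on simulated data. Values of every array are given for the called members, for Becn1, Map1lc3a, Map1lc3b, Sqstm1, Tfeb and Tfe3, and of related lists up to 4 called genes with the highest absolute change. Bnip3, Rubcn, the caseins and dimmer probe sets were named after their values were seen. The members and lists were chosen with earlier results of these data known.

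Alternatives changed the filter (none, or the 75th percentile), the treatment of several probe sets (their mean, or each tested alone), the scaling (centring on medians, or quantile normalization again), the variance (trended and robust), the arrays in the fit (those compared, or all but 1) and the design (a replicate block).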

Additional observations from a re-analysis of the deposited data

How the results depend on the processing

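The number of called members was 7 after injury in control nerve and 6 in mutant nerve. The mean of a gene's kept probe sets gave 11 in control nerve, beside 40.3% of all genes. Without the cut arrays of higher milk protein signal, which leaves 1 array in each cut group, fewer members and a smaller share of all genes were called in both genotypes. Leaving out each array in turn gave 3 to 9 calls in control nerve and 2 to 6 in mutant nerve. Each of these fits also called a smaller share of all genes than the main fit. The cause was not tested beyond fewer arrays in these fits. With a replicate block there were 10 in control and 13 in mutant nerve (8 higher and 5 lower), beside 45.8% and 41.2% of all genes. Atg5, Tfe3 and Bnip3 were added in control nerve, and Atg4c, Atg4d, Atg5, Atg7, Map1lc3a, Gabarapl2 and Bnip3 in mutant nerve. The block joins arrays of the same replicate number across both genotypes, although control and mutant pools came from different mice. It is therefore not a pairing of cut and uncut nerve within mice. Such a pairing within each genotype was not fitted. The labels do not say that numbers pair samples. Deviations of same-numbered arrays from their group means correlated with 0.179 between control cut and uncut nerve and 0.153 between mutant cut and uncut nerve. Over all group pairs the correlations were 0.0226 to 0.34. Whether same-numbered cut and uncut pools of a genotype came from the same mice is not settled, and the block stands as an alternative only. All other alternatives gave 5 to 8 calls, and the genotype and interaction counts were 0 in every alternative run. Of 3327 values of single genes under alternatives, 3232 kept their side of the threshold, 54 lost and 41 gained a call, and 0 called values changed sign. Signal limits the dimmer probe sets, and 2 arrays a group limit all of it: the median 95% interval of a member reached 0.28 to either side.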
